A study of Mus musculus with 23 samples.

Results

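The glucocorticoid receptor, encoded by *Nr3c1*, and 9 genes known to respond to glucocorticoids or to handle them in liver were followed in mice given the steroid pregnenolone 16α-carbonitrile (PCN). The genes were *Fkbp5*, *Tsc22d3*, *Sgk1*, *Zbtb16*, *Klf9*, *Mt1*, *Mt2*, *Hsd11b1* and *Tat*. All probes carrying the name of 1 of these 10 genes were taken, out of 37074 gene names on the array, and all 10 genes had at least 1 probe that passed the signal filter. Liver RNA was measured on 1-colour Agilent arrays, with 1 array for each of 23 male mice. The question was whether PCN reaches these genes, and whether it still does so in mice that lack the pregnane X receptor PXR.

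Wild-type (WT) mice were of the strain C57Bl6/J and were bought at 6 weeks of age. *Pxr*-/- mice lacked PXR in all tissues, had been backcrossed on that background and had been bred in the facility for 10 years, so genotype and colony cannot be told apart. After 2 weeks of acclimatization, mice received either PCN in corn oil at 100 mg/kg by daily intraperitoneal injection for 4 days, or corn oil alone (CONT). Mice had free access to diet and were killed 6 h after their final dose, at zeitgeber time 6 (6 h after lights on). Arrays came from 6 CONT and 5 PCN mice among the WT animals, and from 6 of each among the *Pxr*-/- animals. The study allocated 6 mice to each group, and another WT PCN mouse was not among those read here.

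Glucocorticoids such as corticosterone enter the liver cell and bind a receptor held ready by Hsp90 and its co-chaperones. The loaded receptor moves to the nucleus, binds DNA elements near its target genes and raises or lowers their transcription. In liver it is known for driving amino acid breakdown and gluconeogenesis, for restraining inflammation and for passing the daily corticosterone rhythm on to rhythmic genes. PCN is itself a steroid and is known as a ligand of rodent PXR.

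Sequence upstream of the genes was searched for known binding elements, whose part in the results was not tested. The RefSeq table (build GRCm38.p6) held promoters for 8 of the 10 genes, and *Nr3c1* and *Zbtb16* were therefore not searched. The 250 bases before each annotated start were searched on both strands for a glucocorticoid response element core (GNACA, 3 bases of any kind, then TGTNC), for the metal response element (TGCACNC or TGCGCNC) bound by the zinc sensor Mtf1, and for the E-box CACGTG bound by clock proteins. The 3 sequences below are shown because *Mt1* and *Mt2* were the genes that moved most. *Mt1* and *Sgk1* were also the members with a receptor element in the bases searched. Capitals mark the matched elements.
Mt1, chr8:94178839-94179088, plus strand: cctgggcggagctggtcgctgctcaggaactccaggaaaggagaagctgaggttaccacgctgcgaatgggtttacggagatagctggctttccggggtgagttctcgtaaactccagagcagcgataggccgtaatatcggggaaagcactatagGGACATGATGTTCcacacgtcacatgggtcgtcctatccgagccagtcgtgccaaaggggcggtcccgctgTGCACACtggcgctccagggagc
Mt2, chr8:94172368-94172617, plus strand: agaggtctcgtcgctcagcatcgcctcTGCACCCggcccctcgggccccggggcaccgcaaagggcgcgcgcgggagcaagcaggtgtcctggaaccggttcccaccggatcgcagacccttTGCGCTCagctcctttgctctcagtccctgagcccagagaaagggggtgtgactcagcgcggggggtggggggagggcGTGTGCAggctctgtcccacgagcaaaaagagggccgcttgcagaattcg
Sgk1, chr10:21993640-21993889, plus strand: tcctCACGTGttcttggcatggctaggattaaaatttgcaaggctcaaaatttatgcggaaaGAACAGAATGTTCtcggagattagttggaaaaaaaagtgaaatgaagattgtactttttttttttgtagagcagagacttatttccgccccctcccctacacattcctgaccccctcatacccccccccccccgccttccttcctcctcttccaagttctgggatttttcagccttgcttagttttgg

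The receptor core was found once upstream of *Mt1*, from -94 to -82 relative to the annotated start, and once in 1 of 6 *Sgk1* promoters, from -188 to -176. It occurred in 0.387% of all 32851 mouse promoters of the same length. A metal response element was found once upstream of *Mt1*, 3 times upstream of *Mt2* and once upstream of *Hsd11b1*, against 21.4% of all promoters with at least 1 and 1.26% with at least 3. An E-box was found in the *Fkbp5* promoter and in the same *Sgk1* promoter as the receptor core, against 6.02% of all promoters. None of these elements was found in the windows of *Tsc22d3*, *Klf9* or *Tat*, and these matches describe letters only. Elements farther upstream or inside the genes were not searched for, so their absence from these windows does not describe the whole gene.

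As a check of treatment and genotype, *Cyp3a11*, the classic PXR target, had a log2 change of 3.55 after PCN in WT mice (limma adjusted p = 4.12e-10) and of 0.31 in *Pxr*-/- mice (adjusted p = 0.431). *Cyp2c55* behaved likewise, with changes of 6.26 and 0.54, although *Pxr*-/- CONT mice already lay above every WT CONT mouse, by 2.81 (adjusted p = 1.53e-07). The *Nr1i2* probe, which measures the transcript of PXR, differed by -0.03 between *Pxr*-/- CONT and WT CONT mice. Whether that probe lies in the deleted stretch was not given in the sources used here. Liver markers such as *Alb* and *Apoa1* were well above background on all 23 arrays.

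Across the 10 genes, *Mt2* was called as higher with PCN in WT mice and *Mt1* in *Pxr*-/- mice, each with a positive change in the other genotype too. *Tsc22d3*, negative in both genotypes, was called as lower only on their average, which was computed after the values of each genotype had been seen. In what follows a gene was called when its limma adjusted p was at most 0.05 and its fold change above 1.5. In WT mice 1 of the 10 genes was called, *Mt2*, which was higher, where 6.18% of all 21056 genes were called, 3.79% as higher and 2.39% as lower. In *Pxr*-/- mice 1 of the 10 was called, *Mt1*, also higher, where 2.28% of all genes were called (1.42% higher and 0.86% lower). The median log2 change of the 10 genes was 0.02 in WT and 0.03 in *Pxr*-/- mice, beside -0.02 and -0.01 over all genes. No member's response to PCN differed between the genotypes by this test, and none had an unadjusted p below 0.05 for that difference, where 1.05% of all genes were called. No member differed between *Pxr*-/- CONT and WT CONT mice either, again with 0 of 10 at an unadjusted p below 0.05, where 0.309% of all genes were called.

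**Figure D1:**
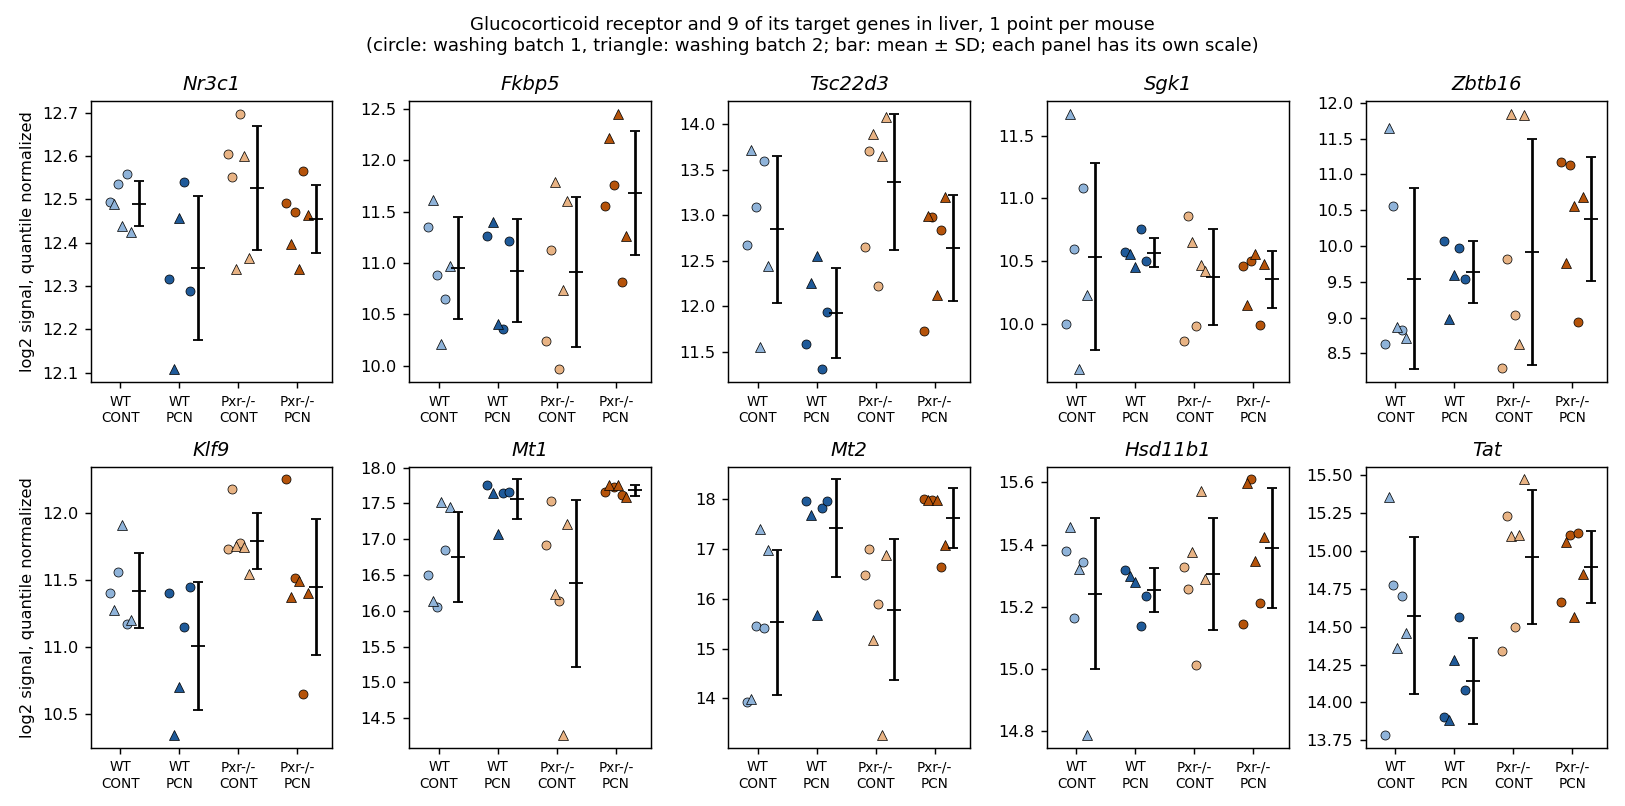
Log2 signal of the receptor gene and its 9 targets in each mouse (vertical axes, with a separate scale per panel), by group along the horizontal axis. Circles and triangles are mice of washing batches 1 and 2, and bars give the mean ± SD. For *Mt1*, all 6 *Pxr*-/- PCN mice lie above all 6 *Pxr*-/- CONT mice, while in every other panel the PCN and CONT ranges overlap within each genotype.

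*Nr3c1*, the receptor itself, was measured on chromosome 18 (39571641 to 39571700, mm9) by the brighter of 2 probes. In WT CONT mice its log2 signal ran from 12.42 through a median of 12.49 to 12.56. The 5 WT PCN mice were at 12.11, 12.29, 12.32, 12.46 and 12.54. The groups overlapped, although 3 of the PCN mice lay below every control mouse. The change was -0.16 ± 0.07 (SE) in WT mice, with a 95% interval from -0.30 to -0.02, and it was not called (limma adjusted p = 0.0967). The *Pxr*-/- signal ran from 12.34 to 12.70 (median 12.58) in CONT and from 12.34 to 12.57 (median 12.47) in PCN mice. That change was -0.07 ± 0.07, with an interval from -0.21 to 0.06 (adjusted p = 0.576). Both intervals lie inside a fold of 1.5 in either direction, so a larger shift of the receptor transcript at this probe was outside the 95% range. The second probe gave -0.19 in WT and 0.03 in *Pxr*-/- mice, neither called. In the authors' deposited values the WT change at the brighter probe had the opposite sign, at 0.02. The median WT change of all genes was 0.12 in those values, against -0.02 in the main fit.

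*Hsd11b1* encodes the enzyme that regenerates active corticosterone from its inactive 11-keto form inside hepatocytes. Its group ranges overlapped. Among WT mice it ran from 14.79 to 15.46 in CONT and from 15.14 to 15.32 in PCN mice, and among *Pxr*-/- mice from 15.01 to 15.57 and from 15.14 to 15.61. PCN changed it by 0.02 (95% interval -0.21 to 0.25) in WT and by 0.08 (-0.14 to 0.30) in *Pxr*-/- mice, and neither was called (limma adjusted p = 0.927 and 0.707). With the authors' deposited values the WT change was larger, at 0.27 ± 0.12, and was not called (adjusted p = 0.128). The median WT change of all genes was 0.12 in those values.

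*Fkbp5* encodes a co-chaperone that lowers the receptor's affinity for hormone and is itself switched on by the receptor, which makes it one of the most used readouts of receptor activity. In *Pxr*-/- mice the signal ran from 9.97 (median 10.93) to 11.79 in CONT and from 10.82 (median 11.66) to 12.46 in PCN mice. These ranges overlapped, and the change of 0.77 ± 0.30 did not pass the adjusted threshold (limma adjusted p = 0.134). In WT mice CONT signals ran from 10.21 (median 10.93) to 11.61. The 5 WT PCN mice, at 10.35, 10.41, 11.21, 11.26 and 11.40, lay inside that range. The WT change was 0.02 ± 0.32 (adjusted p = 0.978). The difference between the genotypes was -0.75, with a 95% interval from -1.66 to 0.16 (adjusted p = 0.458). A second *Fkbp5* probe, in the early part of the transcript, gave -0.20 in WT and 0.12 in *Pxr*-/- mice, so the value of 0.77 was seen at 1 of 2 probes.

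*Tsc22d3* encodes GILZ, an anti-inflammatory protein and another standard readout of the receptor. Its changes were negative in both genotypes. WT CONT mice ran from 11.56 (median 12.88) to 13.71. The 5 WT PCN mice were at 11.31, 11.59, 11.93, 12.26 and 12.55, all below the control median. *Pxr*-/- CONT mice ran from 12.22 (median 13.68) to 14.08 and *Pxr*-/- PCN mice from 11.73 (median 12.91) to 13.20. The change was -0.88 ± 0.37 in WT mice (limma adjusted p = 0.0898) and -0.72 ± 0.35 in *Pxr*-/- mice (adjusted p = 0.236), so it was called in neither genotype alone. Its second probe gave -0.71 and -0.58. It was called in WT mice once control replicate 4 had been left out, at -1.17 (adjusted p = 0.0118).

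*Klf9*, a transcription factor gene induced by glucocorticoids and rhythmic over the day, also had negative changes. WT CONT mice ran from 11.17 (median 11.34) to 11.91, and the 5 WT PCN mice were at 10.34, 10.70, 11.15, 11.41 and 11.45. *Pxr*-/- CONT mice ran from 11.55 (median 11.75) to 12.19 and *Pxr*-/- PCN mice from 10.65 (median 11.45) to 12.25. The ranges overlapped in both genotypes, although 3 of the 5 WT PCN mice lay below every WT control mouse. Of the 6 *Pxr*-/- PCN mice, 5 lay below every *Pxr*-/- control mouse and 1 lay above them all. The changes were -0.43 ± 0.21 (limma adjusted p = 0.148) and -0.34 ± 0.20 (adjusted p = 0.337).

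*Sgk1*, a kinase gene, and *Zbtb16*, encoding the zinc finger protein PLZF, are both strongly induced by the receptor in many cells. *Sgk1* changed by 0.04 in WT and -0.02 in *Pxr*-/- mice, with 95% intervals from -0.50 to 0.57 and from -0.53 to 0.49. With the authors' deposited values the WT change was 0.18 ± 0.27, also not called, beside a median of 0.12 over all genes. *Zbtb16* varied widely between untreated mice, from 8.63 to 11.66 in WT CONT and from 8.29 to 11.85 in *Pxr*-/- CONT. Its changes of 0.13 and 0.46 had intervals from -1.19 to 1.45 and from -0.79 to 1.72, so neither a fall nor a rise beyond 1.5-fold could be told from these mice. *Tat* encodes tyrosine aminotransferase, the textbook glucocorticoid-induced enzyme of liver. It changed by -0.41 ± 0.22 in WT mice (limma adjusted p = 0.19) and by -0.07 ± 0.21 in *Pxr*-/- mice (adjusted p = 0.902).

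*Mt1* and *Mt2* encode metallothioneins, small cysteine-rich proteins that bind zinc and copper and are induced by glucocorticoids, metals and acute phase cytokines. Both genes lie side by side on chromosome 8. *Mt2* in WT CONT mice ran from 13.94 (median 15.42) to 17.40. The 5 WT PCN mice were at 15.68, 17.67, 17.83, 17.95 and 17.95, so 4 of them lay above every control mouse and 1 lay among the controls. The rise was 1.87 ± 0.66, or 3.64-fold, with a 95% interval from 0.50 to 3.23 (limma adjusted p = 0.0445). Without PXR, *Mt2* ran from 13.27 (median 16.19) to 17.01 in CONT and from 16.64 (median 17.99) to 18.002 in PCN mice. Of these 6 PCN mice, 5 lay above every control mouse. The change without PXR was of the same size, 1.83 ± 0.63 or 3.56-fold, but did not pass the threshold (adjusted p = 0.0828). Before adjustment the limma p of *Mt2* was 0.00795 in *Pxr*-/- and 0.00979 in WT mice, so the adjustment set the 2 calls apart. The difference between the genotypes was 0.03, with an interval from -1.85 to 1.92.

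*Mt1* in *Pxr*-/- CONT mice ran from 14.27 (median 16.58) to 17.53, and in *Pxr*-/- PCN mice from 17.59 (median 17.70) to 17.76. Every treated mouse lay above every control mouse. Of all genes, 3.15% had groups that did not overlap in this comparison, against 12.4% in WT mice, where none of the 10 genes had. The rise in *Pxr*-/- mice was 1.30 ± 0.37, or 2.47-fold (limma adjusted p = 0.0394). In WT mice *Mt1* ran from 16.06 (median 16.68) to 17.52 in CONT, and the 5 PCN mice were at 17.07, 17.65, 17.65, 17.67 and 17.76. That change was 0.79 ± 0.39 (adjusted p = 0.156). The difference between the genotypes was -0.51, with an interval from -1.63 to 0.61. A second, dimmer *Mt1* probe gave 1.83 in WT and 2.10 in *Pxr*-/- mice, neither called.

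Both calls sat close to the threshold. *Mt2* in WT mice lost its call when any 1 of 11 arrays was left out (WT CONT replicates 1, 2, 3 and 5, WT PCN replicates 1, 2, 4 and 5, *Pxr*-/- CONT replicate 4, and *Pxr*-/- PCN replicates 3 and 4), with changes from 1.48 to 1.87 and adjusted p from 0.0501 to 0.122. *Mt1* in *Pxr*-/- mice lost its call without any 1 of 10 arrays (*Pxr*-/- CONT replicates 1, 3, 4 and 5, and each *Pxr*-/- PCN replicate), with changes from 0.87 to 1.40 and adjusted p from 0.0502 to 0.0842. Conversely, *Mt1* in WT mice was called without *Pxr*-/- CONT replicate 5 (0.81, adjusted p = 0.0293). The low WT PCN mouse was replicate 3 for both genes, and without it *Mt2* rose by 2.32 (adjusted p = 0.0191). These probes were also among the brightest on the array. *Mt1* in *Pxr*-/- PCN mice ranked between 51 and 64 of 32087 probes, so little room was left above it. No spot of these probes was marked as saturated.

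The average of the PCN effects over both genotypes was computed after these values had been seen, because the genotypes' changes had the same sign for most of the genes above. On this average 3 of the 10 genes were called, 2 higher and 1 lower, where 3.92% of all genes were called (2.6% higher and 1.33% lower). *Mt2* rose by 1.85 ± 0.46 (limma adjusted p = 0.0043) and *Mt1* by 1.05 ± 0.27 (adjusted p = 0.0061). *Tsc22d3* fell by 0.80 ± 0.26 (adjusted p = 0.0223). These 3 calls held when each of the 23 arrays was left out in turn. *Klf9* was at -0.39 ± 0.15 (adjusted p = 0.0506), *Nr3c1* at -0.12 (adjusted p = 0.0726), *Fkbp5* at 0.39 (adjusted p = 0.194) and *Tat* at -0.24 (adjusted p = 0.258). The 2 metallothionein genes were thus called as higher and *Tsc22d3* as lower, and the part of the receptor in these changes was not tested.

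**Figure D2:**
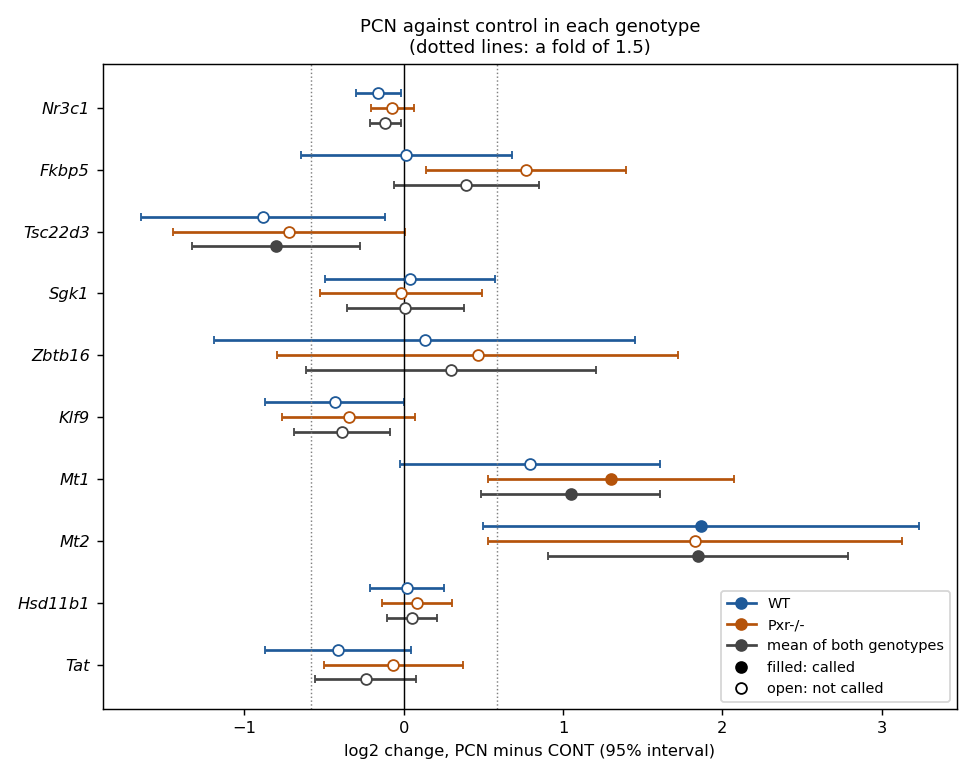
Log2 change with PCN (horizontal axis, points) and its 95% interval (bars) for each of the 10 genes, in WT mice, in *Pxr*-/- mice and averaged over both. Filled points were called and dotted lines mark a fold of 1.5. *Mt2* at 1.85, *Mt1* at 1.05 and *Tsc22d3* at -0.80 are the filled averages, and *Nr3c1* and *Hsd11b1* have the narrowest bars.

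Arrays were washed in 2 batches, each holding 3 arrays of every group except for 2 WT PCN arrays in the second. Within batch 1, *Mt2* rose by 2.98 in WT mice (limma adjusted p = 0.00194), while its change in *Pxr*-/- mice was 1.08 (adjusted p = 0.317). Within batch 2 the order was the opposite, with 0.55 in WT (adjusted p = 0.809) and 2.58 in *Pxr*-/- mice (adjusted p = 0.239). The low WT PCN mouse is 1 of the 2 in batch 2. *Mt1* was at 1.22 (adjusted p = 0.017) and 0.81 (adjusted p = 0.251) in batch 1, and at 0.33 and 1.80 in batch 2 (adjusted p = 0.814 and 0.187). *Tsc22d3* showed the same exchange, with -1.51 in WT (adjusted p = 0.032) and -0.34 in *Pxr*-/- mice in batch 1, and -0.17 and -1.10 in batch 2. *Klf9* was called in WT mice of batch 2 alone, at -0.94 (adjusted p = 0.0274), against -0.05 in batch 1. Averaged over the genotypes, the batches lay closer together. *Mt2* was at 2.03 and 1.57, *Mt1* at 1.01 and 1.06, and *Tsc22d3* at -0.93 and -0.63, although of these 6 values only those of the metallothioneins in batch 1 were called.

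**Figure D3:**
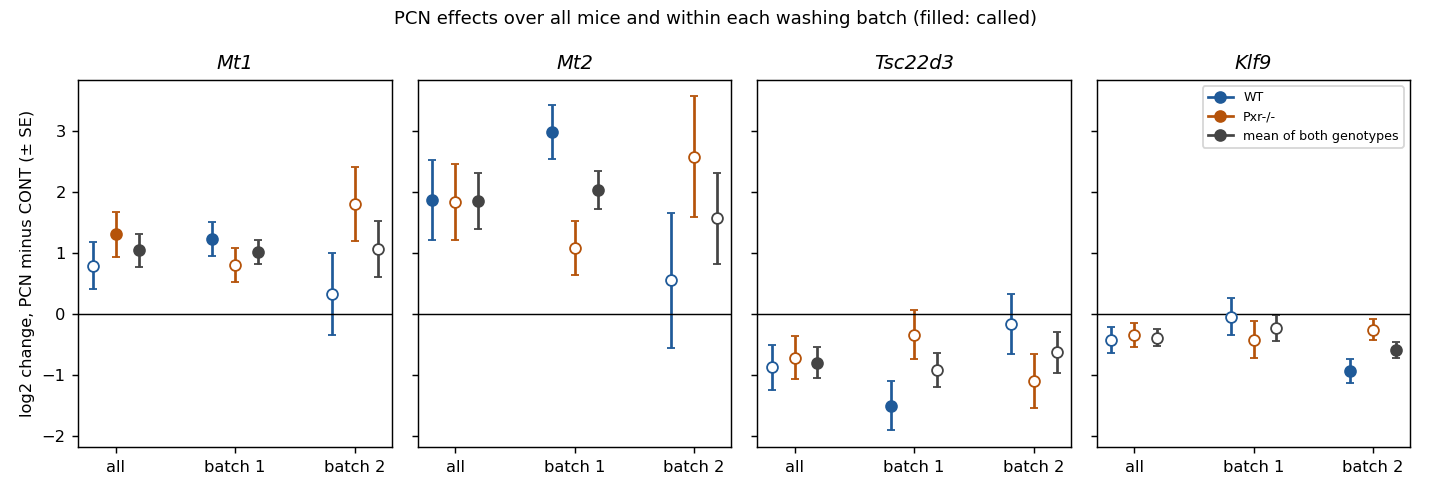
Log2 change with PCN ± SE (vertical axis) for *Mt1*, *Mt2*, *Tsc22d3* and *Klf9*, over all mice and within each washing batch (horizontal axis). Colours stand for WT, *Pxr*-/- and the average of both, and filled points were called. For *Mt2* the WT point is the higher one in batch 1 (2.98 against 1.08) and the lower one in batch 2 (0.55 against 2.58).

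Wider lists of related genes were read in the same fit. Of 18 receptor partners (chaperones, coactivators, corepressors and the related mineralocorticoid receptor), 1 was called in WT mice, a share near the 6.18% of all genes, and 0 in *Pxr*-/- mice. It was *Nr3c2*, the mineralocorticoid receptor, which fell by 0.89 ± 0.19 in WT mice (limma adjusted p = 0.00181) and was at -0.51 in *Pxr*-/- mice (adjusted p = 0.0932). The list's median change was -0.10 in WT mice. Of 8 measured genes for glucocorticoid transport and breakdown, 2 rose in WT mice. *Akr1d1*, the 5β-reductase that inactivates steroid hormones and serves bile acid synthesis, rose by 1.59 ± 0.17 in WT (adjusted p = 1.6e-06) and by 0.71 ± 0.16 in *Pxr*-/- mice (adjusted p = 0.0126). *Abcb1a*, a drug and steroid efflux pump, rose by 1.30 in WT mice and was at -0.19 in *Pxr*-/- mice. The *Abcb1a* difference of 1.49 between the genotypes (adjusted p = 0.032) was the only one called among all the listed pathway genes, and it was called in 12 of the 23 fits that each left out 1 array (1.30 to 1.68, adjusted p from 0.00693 to 0.0827). No listed pathway gene was called between *Pxr*-/- CONT and WT CONT mice.

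Of 30 other genes known to be induced by glucocorticoids, 6 rose and 1 fell in WT mice, and 1 rose in *Pxr*-/- mice, with median changes of -0.09 and 0.02. Over all genes 3.79% rose and 2.39% fell in WT and 1.42% rose in *Pxr*-/- mice, so the single calls are near the background. Under the other settings described below, each washing batch alone included, the number that rose in WT mice was between 1 and 8. The gene called in both genotypes was *Anxa1*, encoding the anti-inflammatory annexin A1, which rose by 1.56 (limma adjusted p = 5.14e-06) and 0.95 (adjusted p = 0.0032). *Sult1e1*, an estrogen sulfotransferase, rose by 1.18 in WT mice, the cell cycle inhibitor *Cdkn1a* by 1.14, and *Pdk4*, which holds back pyruvate oxidation, by 1.00. Without PXR these 3 were at 0.67, 0.58 and 0.05, none called.

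Of 20 genes of gluconeogenesis and amino acid catabolism, the classic metabolic arm of glucocorticoid action, 2 fell and 1 rose in WT mice and 1 fell in *Pxr*-/- mice. Over all genes 2.39% fell and 3.79% rose in WT mice, and 0.86% fell and 1.42% rose in *Pxr*-/- mice. The single rise in WT mice is near its share. *Pck1*, the gluconeogenic enzyme, fell by 1.70 ± 0.27 in WT mice (limma adjusted p = 0.000123) and was at -0.58 in *Pxr*-/- mice (adjusted p = 0.184). The coactivator gene *Ppargc1a* fell in both, by 1.20 and by 0.96 (adjusted p = 9.88e-05 and 0.0031). *Asl*, of the urea cycle, rose by 0.59 in WT mice. Of 17 clock genes, 6 fell in WT mice, among them *Dbp* (-1.49), *Hlf* (-0.99), *Tef* (-0.81) and *Nr1d1* (-0.78). None of the 17 fell in *Pxr*-/- mice by this test, and *Nfil3* rose there by 1.06 (adjusted p = 0.0145). The number of clock genes that fell in WT mice was between 3 and 6 when arrays were left out in turn, and *Nr1d1* kept its call in 15 of 23 such fits. Under the other settings described below, each washing batch alone included, that number was between 1 and 7. The differences of these genes between the genotypes were not called.

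Some acute phase and inflammatory genes were called in the same comparisons as the metallothioneins. Of 20 acute phase genes, 1 rose in WT mice, a share near the 3.79% of all genes, and 6 rose in *Pxr*-/- mice, where 1.42% of all genes did, with median changes of 0.48 and 0.99. *Orm3*, an orosomucoid, rose by 2.62 and 3.17 (limma adjusted p = 0.00487 and 0.00414). *Socs3*, *Il1r1* and *Saa3* rose by 1.91, 1.42 and 1.37 in *Pxr*-/- mice, and were at 1.05, 0.71 and 0.91 in WT mice, not called. The count in *Pxr*-/- mice was between 3 and 11 when arrays were left out in turn, and that in WT mice between 1 and 6. Under the other settings described below, each washing batch alone included, they were between 0 and 10 and between 0 and 5. Of 11 inflammatory genes, 4 rose in WT and 3 in *Pxr*-/- mice, and under the other settings these counts were between 0 and 6 and between 0 and 4. *Cxcl1*, a neutrophil-attracting chemokine, rose by 2.14 and 2.69, *Il1b* by 0.97 in each, and *Icam1* by 0.96 and 0.65, while *Ccl2* rose by 1.43 in WT mice and was at 0.90 in *Pxr*-/- mice. Of 9 genes of metal handling besides the members, 1 rose in each genotype, where 3.79% of all genes rose in WT and 1.42% in *Pxr*-/- mice. *Hmox1* rose by 0.59 in WT mice (limma adjusted p = 0.0304), close to the fold limit. The zinc importer gene *Slc39a14* rose by 0.83 in *Pxr*-/- mice (limma adjusted p = 0.00493). Both counts fell to 0 under at least 1 other setting, and the WT count also in at least 1 fit that left out an array.

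Markers of other liver cells moved too. Over all genes 6.18% were called in WT mice (3.79% as higher) and 2.28% in *Pxr*-/- mice (1.42% as higher). Short lists without a call are near these shares. Of 5 neutrophil markers, *Retnlg*, *S100a8* and *S100a9* rose in both genotypes, with a median over the list of 2.03 in WT and 2.00 in *Pxr*-/- mice. *Ly6g* and *Csf3r* were not called in WT mice, where 4 of the 5 changes were positive. The log2 of that list's summed signal ran from 14.71 to 15.14 in CONT and from 14.81 to 15.34 in PCN mice of the WT, and from 14.81 to 15.08 and from 15.07 to 15.58 in *Pxr*-/- mice. Of 8 stellate cell markers, the collagen genes *Col1a1* and *Col3a1* rose in both genotypes, by 3.17 and 2.18 in WT mice. The list as a whole moved little in WT mice, with a median change of 0.163 and 6 of 8 changes positive. The summed stellate level ran from 14.39 to 15.14, 14.81 to 15.28, 14.18 to 14.90 and 14.24 to 15.23 in the same order of groups. The cholangiocyte marker *Sox9* rose by 0.76 in WT mice, 1 of 5 measured on its list, and the hepatocyte marker *Apoa1* by 0.62 in *Pxr*-/- mice, 1 of 7. None of 8 Kupffer cell and 5 measured lymphocyte markers was called, and *Cldn4* of cholangiocytes and *Adipoq* of adipocytes were well above background on 0 arrays. The part of these cells and of the inflammatory genes in the metallothionein result was not tested. In whole liver, more cells of a type and more RNA per cell cannot be told apart.

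**Figure D4:**
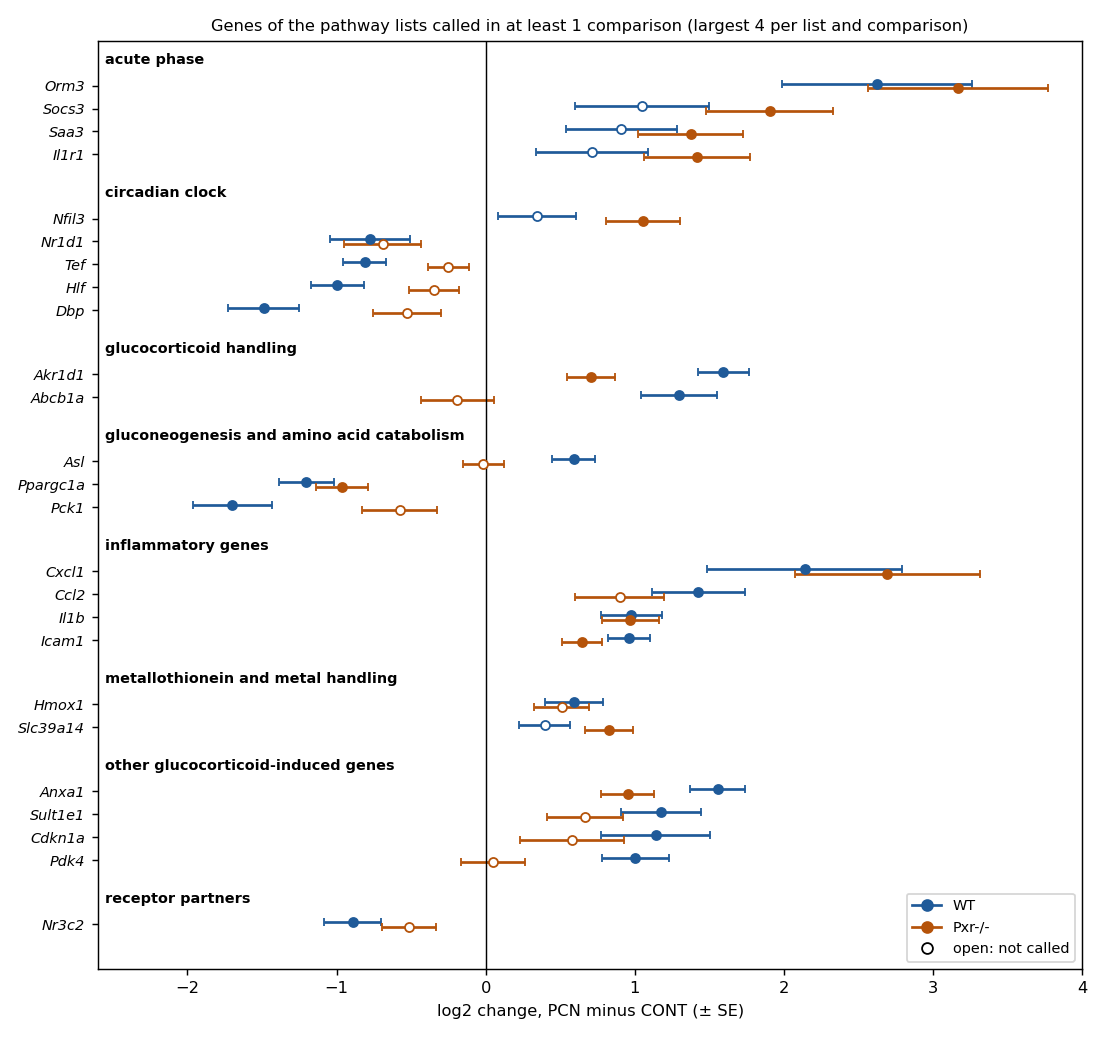
Log2 change with PCN ± SE (horizontal axis) for genes of the related lists that were called in at least 1 comparison, up to 4 per list and comparison, in WT and *Pxr*-/- mice. Filled points were called. *Orm3* and *Cxcl1* lie to the right of 2 in both genotypes, and *Abcb1a* is the gene whose WT and *Pxr*-/- changes differed by the test.

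Mice of the same group differed in ways that tied some of these genes together. After group and washing batch had been removed, 2 of the 45 pairs of genes were correlated over the 23 mice (two-sided permutation tests that shuffled mice within groups, adjusted over 45 pairs). *Mt1* and *Mt2* varied together, with Pearson's r = 0.848 (permutation p = 4e-05, adjusted p = 0.0018) and Spearman's rho = 0.912 (permutation p = 2e-05, adjusted p = 9e-04). Without the 2 mice farthest from the median *Mt1* value r was 0.821, and within the washing batches it was 0.63 and 0.92. *Nr3c1* and *Fkbp5* varied in opposite directions, with r = -0.737 (permutation p = 0.00012, adjusted p = 0.0027) and rho = -0.766 (permutation p = 9e-05, adjusted p = 0.00202). That r was -0.697 without the 2 farthest mice, and -0.861 and -0.666 within the batches. In the authors' deposited values, however, it was -0.278 (permutation p = 0.21). Those values differ in filtering, in the correction for the washing bath and in normalization, and which of these moved r was not tested.

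Among the glucocorticoid-induced genes the largest positive values were 0.664 for *Sgk1* with *Tat*, 0.62 for *Tsc22d3* with *Sgk1*, 0.619 for *Sgk1* with *Zbtb16* and 0.602 for *Tsc22d3* with *Tat*. By Pearson's r these did not pass the adjustment (permutation tests, adjusted p from 0.0802 to 0.113). By rank, *Tsc22d3* with *Tat* (rho = 0.731, permutation test, adjusted p = 0.0087) and *Sgk1* with *Zbtb16* (rho = 0.672, permutation test, adjusted p = 0.0368) did. *Fkbp5* and *Tsc22d3*, both standard readouts of the receptor, had r = 0.373.

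**Figure D5:**
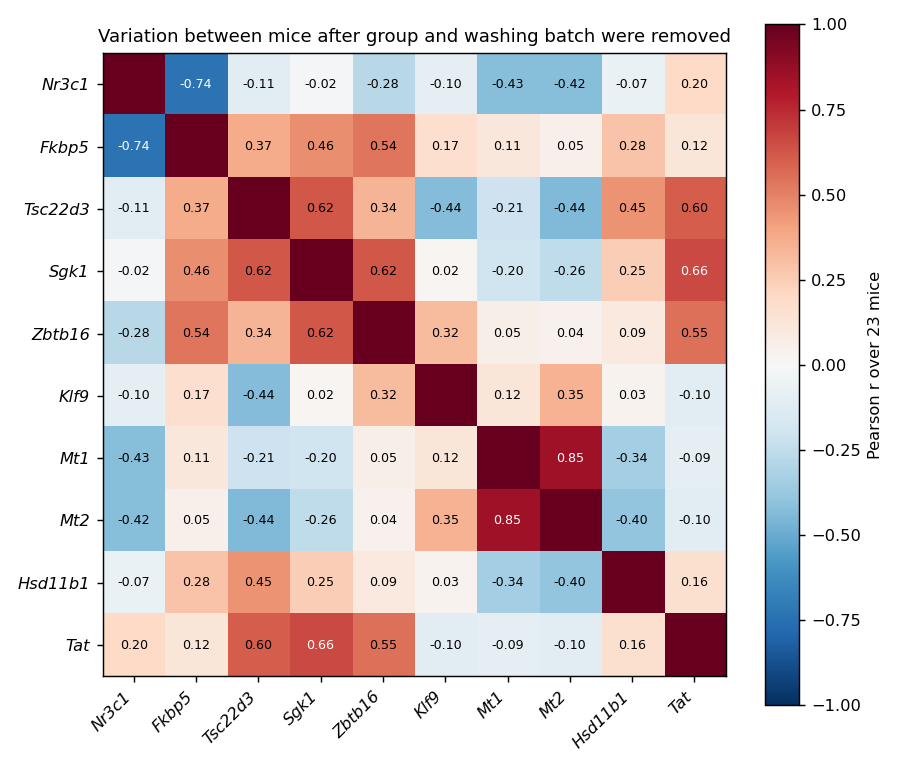
Pearson's r between the 10 genes over 23 mice, with group and washing batch removed, as a colour from blue (-1) to red (1). Both axes list the genes. The darkest cells off the diagonal are *Mt1* with *Mt2* (0.85) and *Nr3c1* with *Fkbp5* (-0.74). Cells among *Tsc22d3*, *Sgk1*, *Zbtb16* and *Tat* are red, from 0.34 (*Tsc22d3* with *Zbtb16*) to 0.66 (*Sgk1* with *Tat*). *Fkbp5* has 0.54 with *Zbtb16* and 0.46 with *Sgk1*.

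Out of 15057 named genes, those most like *Nr3c1* across mice were *Rnf141* (r = 0.854), *Dynll2* (0.806) and *Cnep1r1* (0.768). The gene most like *Tsc22d3* was *Per1* (0.908), a clock gene that glucocorticoids also induce. *Per1* itself was at -0.96 in WT mice (limma adjusted p = 0.13) and -0.09 in *Pxr*-/- mice (adjusted p = 0.936). The closest to *Mt1* was *Mt2*, and the closest to *Mt2* was *Pip5k1a* (0.967). For the others these were *Ivns1abp* for *Fkbp5* (0.81), *Emcn* for *Sgk1* (0.834), *Scarf2* for *Zbtb16* (0.845), *Tns2* for *Klf9* (0.885), *Gstt1* for *Hsd11b1* (0.905) and *Trp53inp1* for *Tat* (0.842). Each is the highest of many correlations over 23 arrays and describes likeness alone.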

How the data were processed

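Per the file headers, the deposited scanner files hold spot intensity values of Agilent Feature Extraction 10.10.1.1, not normalized between arrays. The authors also deposited log2 values, made from median signals by filtering, removal of the effect of the washing bath and CrossNorm. Here, spots marked as outliers were dropped (2225 over all arrays), log2 median signals were averaged per probe, and a probe stayed in (32087 of 56605) if over 50% of any 1 group's arrays marked it well above background, after which values were quantile normalized. Between 29510 and 33321 probes were well above background per array, and the number of arrays limits the precision. One linear model with group and washing batch was fitted over all 23 arrays (limma 3.58.1, R 4.3.3), with Benjamini-Hochberg adjustment over all kept probes. Each gene was read at its brightest kept probe. Probe positions are in mm9. The code was tested on simulated data. Up to 4 called genes per list and comparison were named, by size of change, beside the 10 genes, and the likeness genes were those with the highest r. The genes, lists and tests were chosen with earlier results of these data known. Alternatives were the deposited values, the processed signal scaled to its 75th percentile, normexp background correction (offset 50), no filter, no batch term, slide or replicate number as a block, only the groups compared, each washing batch, each array left out, and the mean over probes.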

Additional observations from a re-analysis of the deposited data

Results flagged for a closer look

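In the WT PCN group 1 mouse, replicate 3, lay far below the other 4 for both metallothioneins. Its *Mt2* signal was 15.678, with the next mouse at 17.673, and its *Mt1* signal was 17.07, with the next at 17.651. *Klf9* had 1 high *Pxr*-/- CONT mouse, replicate 2, at 12.185, with the next at 11.781. WT CONT mice stood apart from the other 5 of their group for *Cyp3a11* (12.829, next 13.598), *Sult1e1* (5.9835, next 5.2918), *Cxcl1* (12.43, next 10.778) and *Icam1* (11.105, next 10.562), the *Cyp3a11*, *Cxcl1* and *Icam1* values belonging to replicate 6 and the *Sult1e1* value to replicate 2. These were 7 of 152 gene and group pairs examined by Dixon's test at the 95% level, 3 of them among the 40 of the 10 genes, and chance gives about 1 in 20. The PCN effect on *Abcb1a* differed between the genotypes by 1.487 (limma adjusted p = 0.032).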

How the results depend on the processing

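The average PCN effects on *Mt1*, *Mt2* and *Tsc22d3* were called under the deposited values, the processed signal, normexp correction, no filter, no batch term, the slide or replicate number as a block and the mean over probes, and in all 23 fits without 1 array (3 to 3 genes). Within the washing batches 2 (*Mt1*, *Mt2*) and 1 (*Klf9*) of the 10 genes were called on this average. It was computed after the values of each genotype had been seen, and its adjusted p takes no account of that. The counts within a genotype were less stable. The 1 gene called in WT and the 1 in *Pxr*-/- mice became 0 and 0 with the processed signal (*Mt2* 1.81, adjusted p = 0.0578, and *Mt1* 1.25, adjusted p = 0.0592, by limma), 0 and 0 with no filter, and 0 and 0 with only the groups compared. Within washing batch 1 they were 3 and 0 and within batch 2 they were 1 and 0, and without 1 array they were 0 to 2 and 0 to 1. With the replicate number as a block they were 2 and 2, since *Tsc22d3* was then called at -0.86 in WT (adjusted p = 0.00971) and -0.72 in *Pxr*-/- mice (adjusted p = 0.0437). What the numbers mark is not given in the sources used here. The deviations of 33 pairs of arrays with the same number had a median r of 0.0029, from -0.17 to 0.611, with 13 above 0.1, and those of 165 pairs with other numbers had a median of -0.019, from -0.304 to 0.357, with 40 above 0.1. The main fit did not pair arrays by number, and these values cannot decide whether the numbers mark a shared block. With the deposited values 1 pair of genes was correlated, not 2. No other count of the 10 genes crossed a limit, and 0 genes were called for the difference between the genotypes or between the control groups under each alternative run. The cause of these shifts was not tested.

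Of 530 alternative values for the 10 genes, 41 had another sign, 0 of them belonging to a called value, and 24 of them within a washing batch. For the PCN effect in WT mice these were *Nr3c1* at 0.015 with the deposited values, *Fkbp5* at -0.0032 with the processed signal, *Fkbp5* at -0.022 with no batch term, *Fkbp5* at -0.0017 and *Hsd11b1* at -0.017 with the replicate block, *Fkbp5* at -0.025 with only the groups compared, *Fkbp5* at -0.022 and *Hsd11b1* at -0.066 in batch 1, *Fkbp5* at -0.030, *Sgk1* at -0.012 and *Zbtb16* at -0.46 in batch 2, *Fkbp5* at -0.093 over probes. For the PCN effect in *Pxr*-/- mice these were *Sgk1* at 0.026 with the deposited values, *Sgk1* at 0.083 and *Tat* at 0.27 in batch 1, *Zbtb16* at -0.43 in batch 2. For the average PCN effect these were *Tat* at 0.019 in batch 1, *Sgk1* at -0.066 and *Zbtb16* at -0.45 in batch 2. For the difference between the genotypes in the PCN effect these were *Nr3c1* at 0.044, *Klf9* at 0.026 and *Hsd11b1* at 0.16 with the deposited values, *Hsd11b1* at 0.040 with the processed signal, *Sgk1* at -0.031, *Klf9* at 0.38 and *Mt1* at 0.42 in batch 1, *Tsc22d3* at 0.94, *Mt2* at -2.03 and *Hsd11b1* at 0.057 in batch 2. For the difference of *Pxr*-/- CONT from WT CONT mice these were *Nr3c1* at -0.090 and *Hsd11b1* at -0.0043 with the deposited values, *Tsc22d3* at -0.26, *Zbtb16* at -0.29, *Mt1* at 0.40 and *Hsd11b1* at -0.097 in batch 1, *Nr3c1* at -0.017, *Fkbp5* at 0.44 and *Mt2* at -1.02 in batch 2, *Nr3c1* at -0.041, *Fkbp5* at 0.26 and *Mt1* at 0.59 over probes. The deposited values also moved the median of all genes, to 0.12 for PCN in WT mice and -0.11 between the control groups.

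When arrays were left out in turn the sign was not fixed for the PCN effect in WT mice of *Fkbp5* (-0.17 to 0.23), *Hsd11b1* (-0.079 to 0.058), *Sgk1* (-0.15 to 0.26) and *Zbtb16* (-0.075 to 0.51), for the PCN effect in *Pxr*-/- mice of *Sgk1* (-0.12 to 0.090) and *Tat* (-0.18 to 0.026), for the average PCN effect of *Sgk1* (-0.083 to 0.12), for the difference between the genotypes in the PCN effect of *Klf9* (-0.29 to 0.065), *Mt2* (-0.35 to 0.56), *Sgk1* (-0.13 to 0.28), *Tsc22d3* (-0.45 to 0.047) and *Zbtb16* (-0.72 to 0.048), and for the difference of *Pxr*-/- CONT from WT CONT mice of *Fkbp5* (-0.23 to 0.12), *Hsd11b1* (-0.041 to 0.12), *Mt1* (-0.59 to 0.063), *Mt2* (-0.10 to 0.76) and *Sgk1* (-0.36 to 0.071).

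Over all genes, the 1302 called in WT mice ranged from 689 (batch 2) to 1932 (processed signal), the 481 in *Pxr*-/- mice from 55 (batch 1) to 657, the 221 for the difference from 84 to 260, the 65 between controls from 9 to 82, and the 826 for the average from 571 to 1406. With 5 or 6 arrays a group, the 95% intervals of the difference between the genotypes reached from -1.85 to 1.92 for *Mt2* and from -2.16 to 1.49 for *Zbtb16*, so differences up to those sizes could not be told from none.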
